A study of Neurospora crassa with 84 samples.

Results

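The velvet complex genes of Neurospora crassa were followed through sexual development as 4 of the 10590 genes in the count table. They were taken by gene identifier: the velvet genes ve-1 (NCU01731), ve-2 (NCU02775) and vos-1 (NCU05964), and the methyltransferase-like gene lae-1 (NCU00646). All 4 passed the filter on low counts, as 4 of the 9701 genes tested. By the RefSeq annotation of assembly NC12, the genes span chromosome II from 2607929 to 2611456 (ve-1), chromosome I from 9233545 to 9236639 (ve-2), chromosome VI from 3287408 to 3290173 (vos-1) and chromosome I from 7714560 to 7717622 (lae-1). The annotation lists 2 transcripts for lae-1 and 1 for each of the others, and the counts were per gene.

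Velvet proteins are fungal regulators that share a DNA-binding fold, the velvet domain, and act as dimers. VE-1, VE-2 and VOS-1 are the Neurospora counterparts of VeA, VelB and VosA of Aspergillus nidulans, and LAE-1 is the counterpart of LaeA, a protein with a methyltransferase-like domain and no velvet domain. In A. nidulans, VeA carries VelB into the nucleus mostly in darkness, where both meet LaeA in a trimer that joins development to secondary metabolism, while VosA pairs with VelB in spores and guards their viability. The series asked how gene expression depends on VE-1 before and after fertilization in dark and in light.

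Cultures of the OR74A wild type and of ∆ve-1, a mat A strain in which the ve-1 gene is deleted, were grown on nitrogen-poor crossing medium in constant darkness or constant light so that they formed protoperithecia, the unfertilized female structures. Wild-type mat a conidia were then applied as the male, so that every culture from day 1 on, ∆ve-1 included, also held wild-type ve-1 from the male parent. Tissue was taken on days -2, -1 and 0, just before fertilization, and on days 1, 2, 4 and 6 after it, which gave 28 groups of 3 libraries and 84 libraries in all. Tissue of replicates was pooled for RNA extraction according to the methods, which also state a minimum of 3 biological replicates for measuring RNA. The labels do not say what separates the 3 libraries of a group, so the p-values measure the spread between these libraries, which may be technical. The mutant is a single strain, and the sources used here do not give the extent of its deletion.

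Library totals ran from 14.5 to 18.4 M counts, where M is 1000000. Levels are given as counts per M counts of a library (CPM) after scaling the libraries by TMM. An SD with n = 9 or n = 12 pools the 3 libraries of each day of a stage. It thus includes the change between days, while the tests use the spread within groups. Replicates correlated over all tested genes with a mean r of 0.948 or more in every library, lowest in ∆ve-1 in darkness before fertilization. The male pheromone gene mfa-1, a marker of the mat a parent, was at 9.46 to 35.6 CPM in libraries taken before fertilization and at 122 to 3036 CPM in those taken after it. Comparisons between strains, light conditions and stages come from edgeR's quasi-likelihood test over 9701 genes with Benjamini-Hochberg adjustment, and a gene was past the threshold at an adjusted p under 0.05. Fertilized and unfertilized tissue differ in their cells, and in these bulk samples fewer cells of a type and less RNA per cell cannot be told apart.

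The ve-1 transcript was abundant in the wild type and nearly gone in ∆ve-1. On day 0 in darkness it was at 368, 416 and 405 CPM in the wild type and at 7.59, 6.26 and 6.97 CPM in ∆ve-1. In light, day 0 libraries were at 294, 266 and 455 CPM in the wild type and at 14.9, 14.9 and 8.43 CPM in ∆ve-1. The 2 strains did not overlap on any day, and ve-1 checks the strain labels of all 84 libraries. The level left in ∆ve-1 was 1.93% of the wild-type level in darkness and 3.28% in light before fertilization, and 2.51% and 4.16% after it, when mfa-1 marked the presence of the male parent. Whether these reads come from a part of the gene left in the strain, from the male or from elsewhere was not tested. They are left out of the comparisons below.

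**Figure D1:**
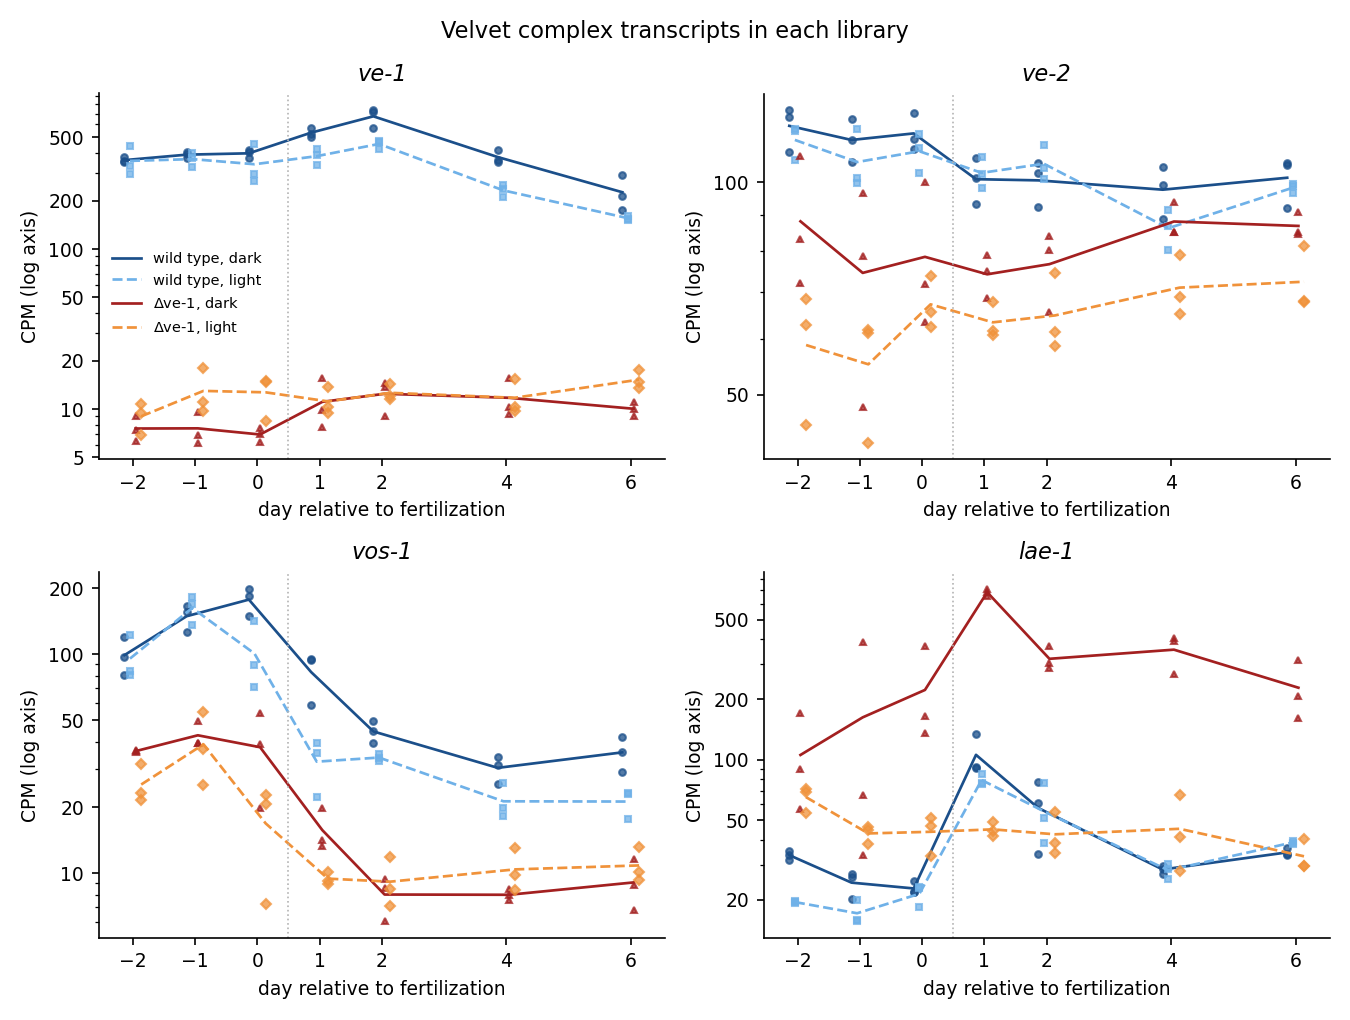
CPM (log axis, a different range in each panel) of the 4 genes, 1 panel each, against the day relative to fertilization. Each point is 1 library and each line joins the means of 3 libraries of a strain and light condition, shifted slightly sideways for clarity, with a dotted line at fertilization. lae-1 in ∆ve-1 in darkness rises to a mean of 686 CPM on day 1 while ∆ve-1 in light stays between 33.0 and 65.1 CPM. vos-1 is lower after fertilization than before it in all 4 conditions, and in light its mean is lower on day 0 than on day -1.

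In the wild type, ve-1 was highest on day 2, a rise that passed the test in darkness, and then fell below its starting level. In the dark it was at 715, 737 and 571 CPM on day 2 and at 214, 290 and 175 CPM on day 6. In light the same days gave 423, 463 and 474 CPM and 161, 154 and 152 CPM. Against day 0, ve-1 in darkness changed by 0.77 on the log2 scale on day 2 (SE 0.216, adjusted p 0.0027, edgeR) and by -0.81 on day 6 (SE 0.217, adjusted p 0.0011, edgeR). In light the difference to day 2 was 0.42 (SE 0.216, adjusted p 0.095, edgeR) and did not pass the threshold, while the change to day 6 was -1.12 (SE 0.218, adjusted p 9.8e-06, edgeR). The rise to day 2 in darkness was 0.66 (adjusted p 0.096, edgeR) without replicate 1 of every group, and that in light was 0.65 and past the test (adjusted p 0.020, edgeR) without replicate 3. A quadratic time course, called at an adjusted p under 0.001, also held ve-1 as changing in the wild type in darkness and in light. Of all genes in these time courses, 42.9% were called in darkness and 52.9% in light.

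In the wild type, ve-1 was lower in light than in darkness after fertilization, and before fertilization the difference did not pass the test. Before it, its level in light was 353 ± 66.5 CPM against 381 ± 23.9 CPM in darkness (SD, n = 9), a log2 difference of -0.11 with an interval from -0.35 to 0.13 (adjusted p 0.462, edgeR). After fertilization it was 305 ± 125 CPM in light against 452 ± 183 CPM in darkness (SD, n = 12), a fold of 1.49 lower in light (log2 -0.57, SE 0.108, adjusted p 2.29e-05, edgeR). The light libraries lay below the dark ones on days 1, 2, 4 and 6 and overlapped with them on days -2, -1 and 0. Day by day, the difference passed the test on day 4 (log2 -0.69, adjusted p 0.018, edgeR), with adjusted p between 0.094 and 0.12 on the other days after fertilization, and not without replicate 1 or replicate 2 of every group. Of all genes, 35.8%, 48.3%, 51.9%, 37.8%, 25.6%, 50.6% and 42.4% did not overlap between light and dark on the 7 days, and 14.4%, 7.37%, 18.3% and 11.5% passed the test on days 1, 2, 4 and 6. Whether the effect of light on ve-1 differed between the stages was not tested.

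Of the other members, ve-2 and vos-1 were lower and lae-1 was higher in ∆ve-1, except for lae-1 in light after fertilization. All 3 passed the test in darkness before fertilization, where 63.8% of all tested genes did, and in darkness after it, where 66.3% did. In light all 3 passed before fertilization, against 70.8% of all genes. After fertilization in light 2 of 3 passed, against 80.9% of all genes. With a log2 change beyond 1 in either direction asked for as well, vos-1 and lae-1 passed in darkness, where 20.7% of all genes did so before and 16.4% after fertilization. In light vos-1 and lae-1 passed with this size before fertilization, against 22.4% of all genes, and vos-1 alone after it, against 33% of all genes. The counts of members past the test were thus read against a background in which most genes differed between the strains.

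The ve-2 transcript, which encodes the velvet partner of VE-1, varied little. The means of the wild-type groups lay between 86.1 and 120 CPM, those of the ∆ve-1 groups between 55.2 and 88.0 CPM, and the quadratic time course called it in none of the 4 conditions. On day -2 in light it was at 107, 119 and 118 CPM in the wild type and at 62.8, 68.3 and 45.2 CPM in ∆ve-1. On day 6 in darkness it was at 106, 92.0 and 107 CPM in the wild type and at 84.3, 90.8 and 85.0 CPM in ∆ve-1. The libraries of the 2 strains did not overlap on either day, and on day 6 in darkness the closest were at 90.8 and 92.0 CPM. Over the 14 comparisons by day, the mutant libraries lay below the wild-type ones in 13, and overlapped with them on day 4 in darkness. Of all tested genes, 36.3%, 40.2%, 44.9%, 58.2%, 54.2%, 58.6% and 54.1% did not overlap between strains in darkness on days -2, -1, 0, 1, 2, 4 and 6, and 57.7%, 52.8%, 57.3%, 74.4%, 67.6%, 72.9% and 78.6% in light.

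Averaged over the days before fertilization, ve-2 was 1.47-fold lower in ∆ve-1 in darkness (log2 -0.55, SE 0.0867, adjusted p 1.31e-07, edgeR) and 1.84-fold lower in light (log2 -0.88, SE 0.0873, adjusted p 2.47e-13, edgeR). After fertilization it was 1.24-fold lower in darkness (adjusted p 0.000331, edgeR) and 1.45-fold lower in light (adjusted p 4.05e-09, edgeR). Of all genes, 45.2%, 40.7%, 44.1%, 44.5%, 48.4%, 36.4% and 39.2% passed the test between strains on the 7 days in darkness, and 51.7%, 50.6%, 52%, 62.5%, 64.3%, 63.1% and 66.8% in light. By day, the difference in ve-2 did not pass the test on day 4 (log2 -0.15, adjusted p 0.46, edgeR) and day 6 (log2 -0.23, adjusted p 0.23, edgeR) in darkness or on day 4 in light (log2 -0.28, adjusted p 0.10, edgeR), and those on days -2, 1 and 2 in darkness and day 6 in light did not without replicate 2 of every group. Before fertilization, the strain effect on ve-2 in light differed from that in darkness by -0.33 on the log2 scale (SE 0.122, adjusted p 0.0273, edgeR), where 40.5% of all genes showed such a difference. That call was lost under 9 of 10 alternatives, and the value was -0.14 (adjusted p 0.52, edgeR) without replicate 3 of every group.

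The vos-1 gene, for the velvet protein whose A. nidulans counterpart acts in spores, was lower in ∆ve-1 on every day. On day 0 in darkness its transcript was at 149, 200 and 185 CPM in the wild type and at 20.0, 38.8 and 54.2 CPM in ∆ve-1. On day 4 in darkness it was at 34.2, 25.5 and 31.3 CPM in the wild type and at 7.96, 7.55 and 8.44 CPM in ∆ve-1. Late in light, on day 6, it was at 23.0, 23.2 and 17.7 CPM in the wild type and at 10.1, 13.1 and 9.37 CPM in ∆ve-1. The 2 strains did not overlap on any of the 7 days in darkness or in light, and the gap was narrowest late in light.

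In the dark, vos-1 was 3.56-fold lower in ∆ve-1 before fertilization (log2 -1.83, SE 0.164, adjusted p 5.57e-15, edgeR) and 4.57-fold lower after it (log2 -2.19, SE 0.148, adjusted p 1.46e-19, edgeR). In light it was 4.54-fold lower before fertilization (log2 -2.18, SE 0.167, adjusted p 1.8e-17, edgeR) and 2.67-fold lower after it (log2 -1.41, SE 0.147, adjusted p 3.45e-13, edgeR). By day, the log2 change of vos-1 ran from -1.46 to -2.47 in darkness and from -0.97 to -2.57 in light, and each of the 14 passed the test. After fertilization the strain effect on vos-1 was smaller in light than in darkness by 0.78 (SE 0.204, adjusted p 0.00127, edgeR), where 48.7% of all genes differed in this way, and by 0.65 (adjusted p 0.092, edgeR) without replicate 2 of every group. Before fertilization the same difference was -0.35 with an interval from -0.79 to 0.09 (adjusted p 0.22, edgeR).

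The low-coordinate end of vos-1 overlaps the gene NCU05965, which spans chromosome VI from 3285675 to 3287604, and the table used here gives no strand for either. The counting took account of strand. How reads from the shared stretch were counted, if the genes lie on the same strand, is not given. NCU05965 moved far less than vos-1, with log2 changes in ∆ve-1 from -0.29 to -0.39 over the 4 comparisons.

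The 5 conidial genes con-6, con-8, con-10, con-13 and eas, which mark asexual spores, were measured beside these results because of the part VosA plays in spores of A. nidulans. In darkness their summed level had a median of 19715 CPM in ∆ve-1 and 1683 CPM in wild-type libraries before fertilization, and of 17404 and 2338 CPM after it. Before fertilization in darkness the libraries of the strains overlapped (8689 to 66503 CPM in ∆ve-1 and 1109 to 23740 CPM in the wild type). In light the medians were 65142 and 58208 CPM before fertilization, where the libraries of the strains overlapped (47470 to 107052 CPM and 32145 to 72571 CPM), and 84329 and 12465 CPM after it, and no marker was at 0. Of the 5 conidial genes in darkness, 4 were higher in ∆ve-1 and none lower before fertilization, against 34.9% of all genes higher, and 4 were higher and 1 lower after it (con-13, log2 -1.13), against 31.8%. In light 3 were higher and 1 lower before fertilization (eas, log2 -1.01), against 35.9% of all genes higher, and 4 were higher and none lower after it, against 38.4%. Over the same 4 comparisons vos-1 was lower. The part that conidia had in the level of vos-1 was not tested.

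The lae-1 transcript, for the methyltransferase-like partner, had group means that spanned 40.0-fold over the 28 groups, against 22.3-fold for vos-1, and a strain effect that differed between dark and light at both stages. On day 1 in darkness it was at 134, 91.5 and 91.9 CPM in the wild type and at 656, 715 and 686 CPM in ∆ve-1. In light that day gave 85.0, 76.1 and 76.6 CPM in the wild type and 49.1, 41.4 and 44.4 CPM in ∆ve-1. On that day the mutant libraries lay above the wild type in darkness and below it in light, with no overlap in either. On day -2 in light the mutant was the higher, at 54.3, 69.1 and 71.7 CPM against 19.7, 19.4 and 19.3 CPM in the wild type.

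In the dark, lae-1 was 5.91-fold higher in ∆ve-1 before fertilization (log2 2.56, SE 0.237, adjusted p 1.79e-14, edgeR) and 7.39-fold higher after it (log2 2.89, SE 0.207, adjusted p 1.31e-18, edgeR). The mutant libraries lay above the wild-type ones on all 7 days, with a log2 change by day between 1.66 (day -2) and 3.64 (day 4). In light before fertilization lae-1 was 2.57-fold higher in ∆ve-1 (log2 1.36, SE 0.23, adjusted p 5.34e-07, edgeR), with no overlap on days -2, -1 and 0. In light after fertilization the difference was -0.19 with an interval from -0.57 to 0.20 (adjusted p 0.382, edgeR). The mutant libraries then lay below the wild type on day 1 (log2 -0.82, SE 0.39, adjusted p 0.063, edgeR) and overlapped with it on days 2, 4 and 6. The day 1 difference was past the test with DESeq2 (log2 -0.87, adjusted p 0.038), with its size factors (adjusted p 0.046, edgeR), with a replicate block (adjusted p 0.049, edgeR) and without replicate 3 of every group (log2 -0.79, adjusted p 0.024, edgeR).

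The strain effect on lae-1 in light minus that in darkness was -1.20 before fertilization (SE 0.32, adjusted p 0.00203, edgeR) and -3.07 after it (SE 0.28, adjusted p 2.52e-14, edgeR). After fertilization, 1.75% of all tested genes passed the test with a strain effect higher in light by more than 1 on the log2 scale. With one lower by more than 1, 15.4% passed, lae-1 among them.

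**Figure D2:**
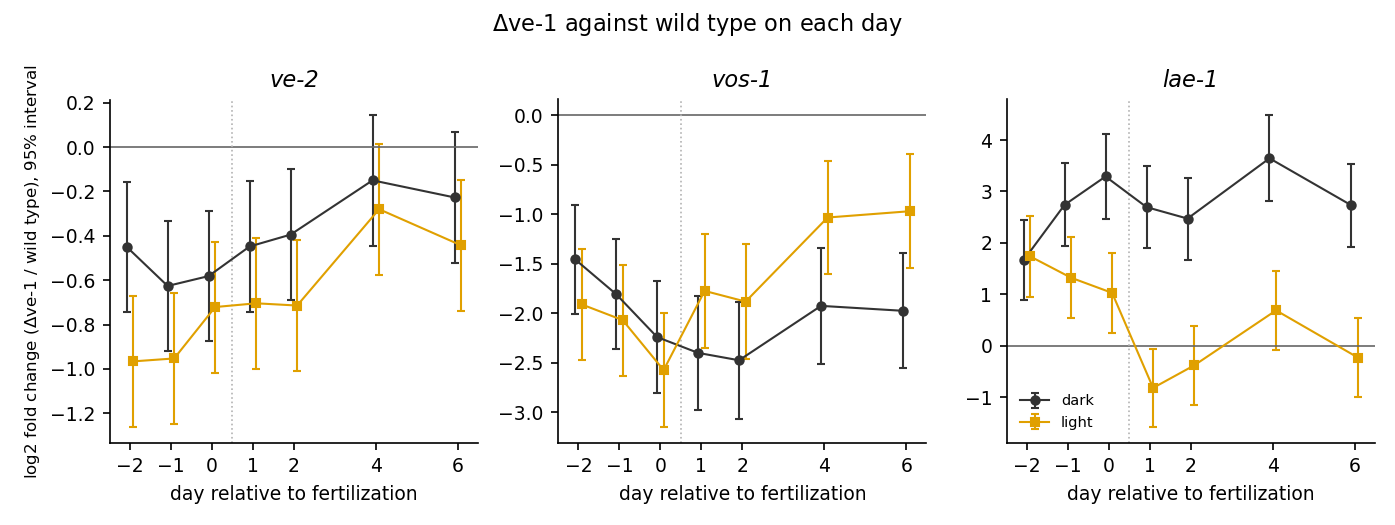
Log2 fold change of ve-2, vos-1 and lae-1 in ∆ve-1 against the wild type on each day, in darkness (black circles) and in light (yellow squares), with 95% intervals from the fit of all 28 groups and a separate vertical range in each panel. The effect on lae-1 stays between 1.66 and 3.64 in darkness and in light goes from 1.74 (day -2) to -0.82 (day 1), while vos-1 is below 0 on every day.

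The lae-1 replicates of ∆ve-1 in darkness before fertilization varied widely. They were at 56.8, 89.9 and 171 CPM on day -2, at 33.6, 67.0 and 388 CPM on day -1 and at 369, 165 and 136 CPM on day 0, so the high library was not the same replicate number each day. Over all genes, the library least like its replicates was replicate 3 on day -2, replicate 1 on day -1 and replicate 1 on day 0, which held the highest, the lowest and the highest lae-1 level of their groups. Without these 3 libraries, left out after seeing the data, the strain effect in darkness before fertilization was 2.34 and its difference between light and dark -0.92 (adjusted p 0.00286, edgeR). Without the single library at 388 CPM these were 1.99 and -0.58 (adjusted p 0.0485, edgeR), and without replicate 3 of every group the difference between light and dark was -0.51 (adjusted p 0.12, edgeR).

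Because the deletion strain was compared in both light conditions, the effect of light could be read in each strain. In the wild type, none of the 4 members passed the test between light and dark before fertilization, where 59.1% of all genes did. The lae-1 libraries in light still lay below the dark ones on days -2 and -1, where 35.8% and 48.3% of all genes did not overlap. That lae-1 difference passed with only the groups compared (log2 -0.47, adjusted p 0.00012, edgeR) and with DESeq2 (log2 -0.49, adjusted p 0.049). It also passed without replicate 3 of every group (log2 -0.49, adjusted p 0.017, edgeR). After fertilization ve-1 and vos-1 passed, both lower in light, where 37.6% of all genes passed and 14.3% were lower. The wild-type vos-1 level was 27.2 ± 7.57 CPM in light and 48.4 ± 23.7 CPM in darkness after fertilization (SD, n = 12), 1.68-fold lower in light (log2 -0.75, SE 0.141, adjusted p 1.98e-05, edgeR). The difference was already present on day 0, at 89.2, 71.2 and 142 CPM in light against 149, 200 and 185 CPM in darkness (log2 -0.82, adjusted p 0.013, edgeR; 44.2% of all genes passed), and was -1.36 on day 1 (adjusted p 0.00037, edgeR). Without replicate 2 of every group these were -0.53 (adjusted p 0.33, edgeR) and -1.04 (adjusted p 0.18, edgeR). For lae-1 in the fertilized wild type the difference was -0.08 with an interval from -0.46 to 0.30, and for ve-2 it was -0.03 with an interval from -0.18 to 0.12.

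In ∆ve-1, all 3 remaining members were lower in light before fertilization, where 51.4% of all genes passed the test. The level of lae-1 was 50.6 ± 13 CPM in light against 164 ± 131 CPM in darkness (SD, n = 9), 3.16-fold lower (log2 -1.66, SE 0.229, adjusted p 1.61e-08, edgeR). Without the dark library at 388 CPM this was -1.05 (adjusted p 8.79e-07, edgeR). The changes of ve-2 (log2 -0.41, adjusted p 7.19e-05, edgeR) and vos-1 (log2 -0.60, adjusted p 0.00162, edgeR) were smaller, and without replicate 3 of every group they were -0.20 (adjusted p 0.12, edgeR) and -0.40 (adjusted p 0.094, edgeR). After fertilization ve-2 and lae-1 passed in ∆ve-1, against 69.3% of all genes. There lae-1 was 8.88-fold lower in light, at 41.4 ± 11.3 CPM against 397 ± 188 CPM (SD, n = 12; log2 -3.15, SE 0.209, adjusted p 1.72e-20, edgeR), and 14.7% of all genes passed the test with a fall of more than 1 on the log2 scale. The light libraries of lae-1 in ∆ve-1 lay below the dark ones on days 0, 1, 2, 4 and 6 and overlapped with them on days -2 and -1, while 31.4%, 22.9%, 29.8%, 56.9%, 40.8%, 60.3% and 63.2% of all genes did not overlap on the 7 days. The change of vos-1 was 0.03 with an interval from -0.26 to 0.32.

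**Figure D3:**
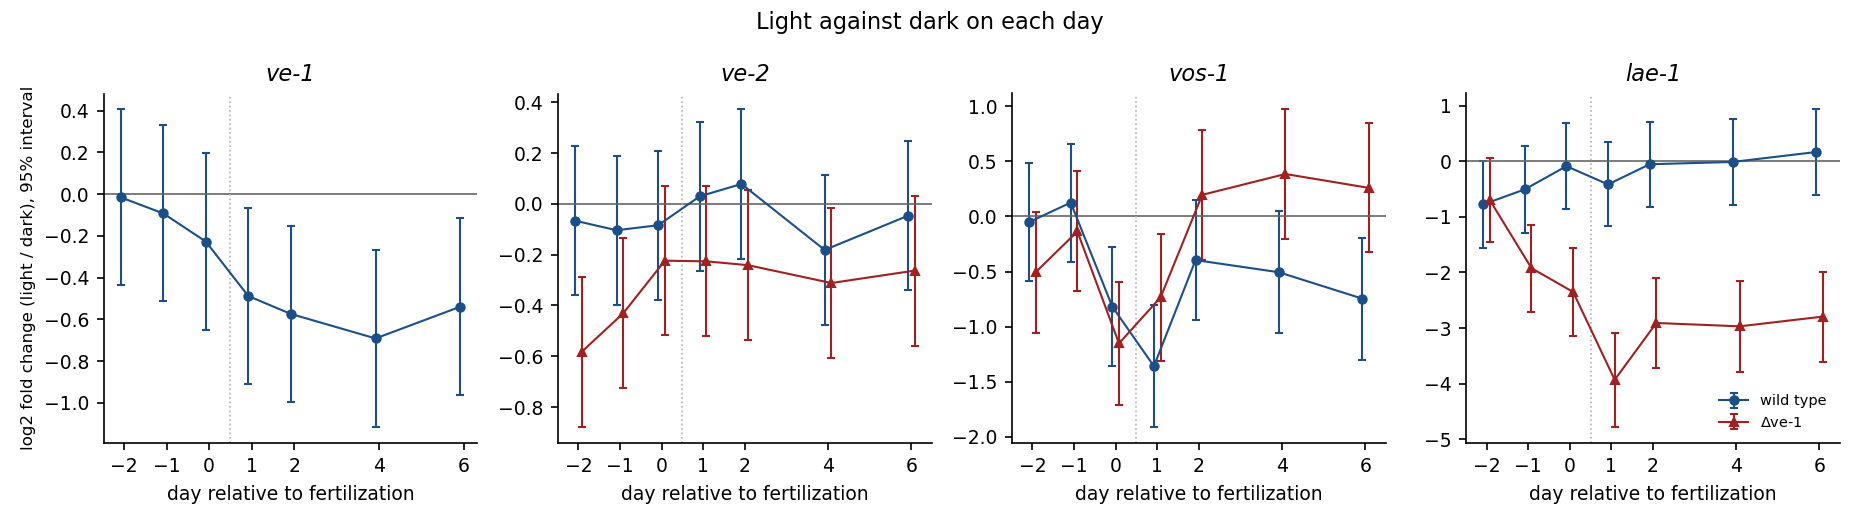
Log2 fold change in light against the dark on each day for the 4 members, in the wild type (blue circles) and in ∆ve-1 (red triangles), with 95% intervals and a separate vertical range in each panel. The ve-1 panel shows the wild type alone, since the gene is deleted in the mutant. lae-1 stays between -0.78 and 0.17 in the wild type and reaches -3.93 in ∆ve-1 on day 1.

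Over the step from unfertilized to fertilized tissue, the mean of days 1, 2, 4 and 6 against that of days -2, -1 and 0, vos-1 fell in every condition. Its log2 change was -1.63 in darkness and -2.13 in light for the wild type, and -1.99 in darkness and -1.36 in light for ∆ve-1, with adjusted p from 2.1e-19 to 1.34e-10 (edgeR), while 66%, 72.3%, 60.7% and 50.4% of all genes passed in these 4 steps. Already on day 1 vos-1 had fallen against day 0 by 1.10 in the wild type in darkness (adjusted p 0.0016, edgeR) and by 1.64 in light (adjusted p 2.8e-06, edgeR), from 149, 200 and 185 to 58.8, 95.6 and 94.7 CPM and from 89.2, 71.2 and 142 to 35.4, 22.4 and 39.3 CPM. In light the mean was already lower on day 0 than on day -1. It was 101 against 163 CPM in the wild type and 16.9 against 38.8 CPM in ∆ve-1. In darkness it was 178 against 149 CPM and 37.7 against 42.7 CPM. In ∆ve-1 the change to day 1 passed the test in darkness but not in light. The call was lost in darkness without replicate 2 of every group (adjusted p 0.064, edgeR). A call was gained in light with DESeq2 (adjusted p 0.046) and without replicate 1 (adjusted p 0.015, edgeR). In light the fall of vos-1 over the whole step was smaller in the mutant than in the wild type, by 0.77 (SE 0.217, adjusted p 0.00215, edgeR), against 52.4% of all genes that differed between strains, and without replicate 3 of every group this was 0.46 (adjusted p 0.149, edgeR). In the dark it differed by -0.36 (adjusted p 0.181, edgeR), against 40.3% of all genes. These differences between steps were tested after seeing the data. Over the same step ve-1 in the wild type was lower by 0.33 on the log2 scale in light (adjusted p 0.0099, edgeR; -0.20 and adjusted p 0.15 without replicate 3 of every group) and differed by 0.13 in darkness (adjusted p 0.314, edgeR). The step of ve-2 in the wild type was -0.23 in darkness (SE 0.0806, adjusted p 0.011, edgeR) and -0.17 in light (SE 0.0807, adjusted p 0.048, edgeR), calls that were lost in darkness without replicate 2 or 3 and in light with DESeq2, with its size factors and without any 1 replicate number. In ∆ve-1 it was 0.02 in darkness (adjusted p 0.868, edgeR) and 0.17 in light (adjusted p 0.077, edgeR). The strain difference in the ve-2 step was 0.34 in light (SE 0.115, adjusted p 0.0093, edgeR; 0.22 and adjusted p 0.18 without replicate 3 of every group) and 0.25 in darkness (adjusted p 0.078, edgeR). The quadratic time course called vos-1 in all 4 conditions, where it called 42.9%, 52.9%, 21.2% and 31.6% of all genes in the same order.

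The level of lae-1 rose from day 0 to day 1 in the wild type. From day 0 to day 1 it went from 21.8, 21.8 and 24.8 CPM to 134, 91.5 and 91.9 CPM in darkness (log2 2.21, SE 0.406, adjusted p 1.8e-05, edgeR) and from 18.3, 23.1 and 22.8 CPM to 85.0, 76.1 and 76.6 CPM in light (log2 1.89, SE 0.402, adjusted p 9.9e-05, edgeR). On day 2 it was still higher than on day 0 in both (adjusted p 0.0044 in darkness and 0.0032 in light, edgeR), in darkness not past the test without replicate 2 of every group (log2 1.26, adjusted p 0.098, edgeR), and on day 4 it was at 28.3 ± 1.25 CPM in darkness and 28.1 ± 2.50 CPM in light (SD, n = 3), where the difference from day 0 did not pass the test. On day 6 it was at 33.8, 33.4 and 36.3 CPM in darkness (log2 0.60 against day 0, adjusted p 0.189, edgeR) and at 39.3, 38.2 and 38.6 CPM in light (log2 0.85, adjusted p 0.051, edgeR). Neither difference on day 6 passed the test. Over the whole step lae-1 changed in the wild type by 0.90 in darkness (SE 0.216, adjusted p 0.00024, edgeR) and by 1.28 in light (SE 0.219, adjusted p 6.7e-07, edgeR). Of all genes, 31.8% in darkness and 43.1% in light differed between day 0 and day 1.

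In ∆ve-1 in darkness lae-1 rose over the same day from 369, 165 and 136 CPM to 656, 715 and 686 CPM (log2 1.62, SE 0.393, adjusted p 0.0014, edgeR; 23.9% of all genes passed), its highest level in the series. In ∆ve-1 in light it was at 32.9, 51.4 and 46.8 CPM on day 0 and at 49.1, 41.4 and 44.4 CPM on day 1, with a log2 difference of 0.04 and an interval from -0.72 to 0.80, while 6.1% of all genes passed. The change from day 0 to day 1 in light was lower in the mutant than in the wild type, with a difference of -1.85 (SE 0.556, adjusted p 0.0121, edgeR), a difference seen in 19.8% of all genes, and in darkness the difference was -0.60 (adjusted p 0.56, edgeR), against 8.3% of all genes. Without replicate 2 of every group the difference in light was -1.75 (adjusted p 0.172, edgeR), and the rise in ∆ve-1 in darkness was 1.41 (adjusted p 0.10, edgeR). Over the whole step lae-1 in ∆ve-1 changed by 1.22 in darkness (SE 0.214, adjusted p 1.8e-06, edgeR) and differed by -0.27 in light (adjusted p 0.289, edgeR). The strain difference in that step was -1.55 in light (SE 0.301, adjusted p 1.6e-05, edgeR) and 0.32 in darkness (adjusted p 0.416, edgeR), which was 0.89 (adjusted p 0.0010, edgeR) without the library at 388 CPM. The quadratic curve, which has a single bend over the 7 days, called lae-1 in no condition (adjusted p from 0.00456 to 0.0568, edgeR), while a fit with a mean for each day called it in the wild type in darkness (adjusted p 1.62e-07, edgeR) and in light (adjusted p 4.54e-09, edgeR).

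The 6 perithecial genes per-1, fsd-1, asd-1, asd-3, asm-1 and sub-1 were read beside these steps, with ∆ve-1 in light as the condition in which the day 1 rise of lae-1 was not detected. Their summed level after fertilization lay between 2704 and 10076 CPM in darkness and between 4814 and 11345 CPM in light for the wild type. For ∆ve-1 it lay between 1708 and 4853 CPM in darkness and between 671 and 963 CPM in light, where before fertilization it was 578 to 886 CPM. No marker was at 0 in any of these groups. In light after fertilization 3 of the 6 were lower in ∆ve-1, fsd-1 (log2 -2.55), asm-1 (log2 -2.39) and per-1, a gene for the dark pigment of the fruiting body wall (log2 -4.76, adjusted p 2.6e-17, edgeR). There asd-1 was higher (log2 1.33), and asd-3 (log2 0.09) and sub-1 (log2 0.21) did not pass the test. Of all genes, 80.9% passed the test in that comparison and 38.4% were higher. In darkness after fertilization 2 of the 6 were higher and 3 lower in ∆ve-1, where 66.3% of all genes passed and 31.8% were higher. The male marker mfa-1 was lower in ∆ve-1 in light after fertilization as well, by 1.31 (adjusted p 4.2e-08, edgeR). The part of fruiting body tissue and of male tissue in the level of lae-1 was not tested.

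Set on a common scale of CPM per kilobase of gene span, which includes introns, the order of the members differed between strains and days. In the wild type ve-1 was first in all 14 groups, at 44.2 to 191 CPM per kilobase. Behind it vos-1 was at 64.3 CPM per kilobase on day 0 in darkness, above ve-2 at 37.9, and from day 2 on it was at 7.69 to 16.1, below ve-2 at 27.8 to 34.3. In ∆ve-1 in darkness the mean of lae-1 was first on all 7 days, at 34.5 to 224 CPM per kilobase. Without the library with the highest lae-1 level, left out after seeing the data, ve-2 was above lae-1 on day -2 (25.0 against 23.9 CPM per kilobase) and on day -1 (23.4 against 16.4), and lae-1 was above ve-2 on the other 5 days. In ∆ve-1 in light ve-2 was first on 6 of 7 days, at 17.8 to 23.4 CPM per kilobase, and lae-1 on day -2, at 21.2. The level of lae-1 in ∆ve-1 in darkness on day 1 was thus higher than that of ve-1 in any wild-type group on this scale.

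**Figure D4:**
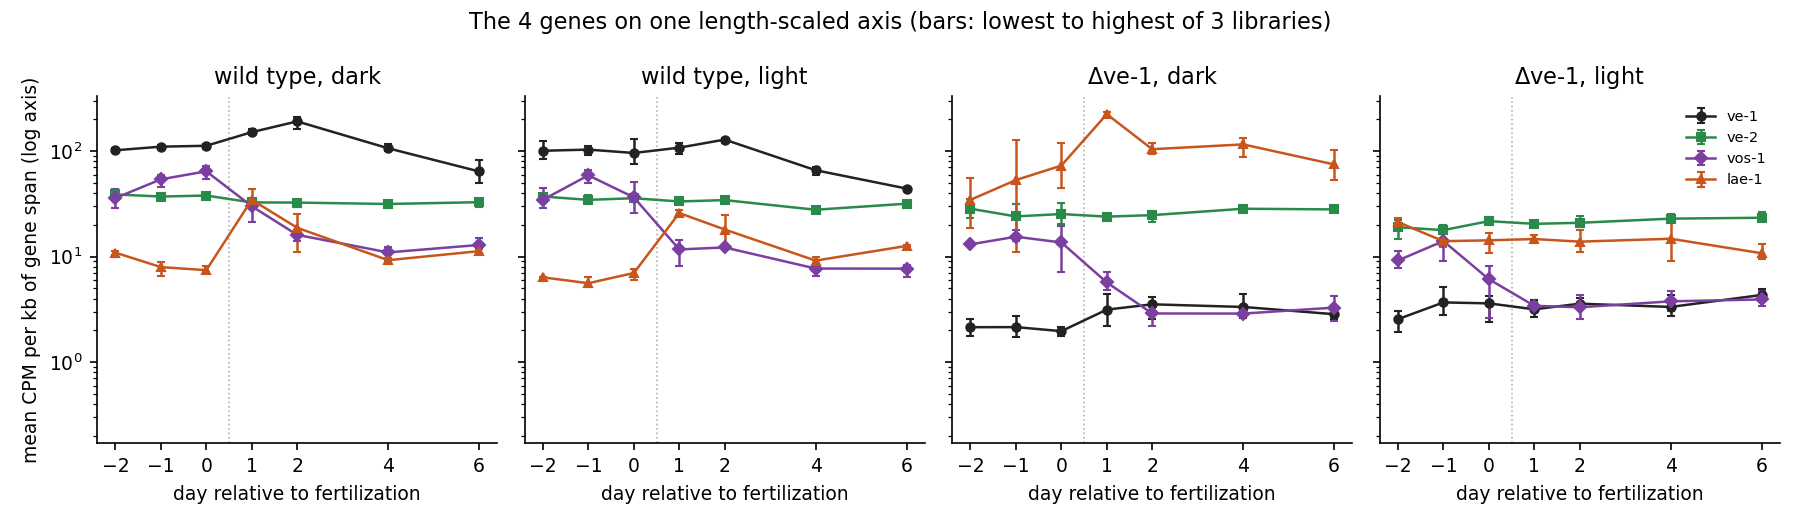
Mean level of the 4 genes as CPM per kilobase of gene span (log axis) by day in each strain and light condition, with bars from the lowest to the highest of 3 libraries. ve-1 (black circles) is the highest in both wild-type panels, lae-1 (orange triangles) in ∆ve-1 in darkness, and ve-2 (green squares) on 6 of 7 days in ∆ve-1 in light. In ∆ve-1 in darkness lae-1 is above ve-2 in 2 of 3 libraries on day -2 and in 1 of 3 on day -1.

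Ordered by mean level over the 28 groups, ve-2, vos-1 and lae-1 each formed a nearly continuous series. Neighbours in the order overlapped in their libraries in all 27 pairs for ve-2, in 25 of 27 for vos-1 and in 24 of 27 for lae-1. For ve-1, 9 of 13 pairs of wild-type groups overlapped. A gap from 152 to 18.1 CPM lay between the lowest wild-type library, in light on day 6, and the highest ∆ve-1 library, in light on day -1. For lae-1, ∆ve-1 in darkness on day 1 stood apart from the next group, ∆ve-1 in darkness on day 4 at 269 to 403 CPM. The other breaks lay below the wild type in light on day 1 and below the wild type in light on day 6, at 38.2 to 39.3 CPM. For vos-1 the breaks lay below the wild type in darkness on day 1, at 58.8 to 95.6 CPM, and below ∆ve-1 in darkness on day 1, at 13.3 to 19.8 CPM. The 7 groups below that break were the other groups of ∆ve-1 after fertilization, at means of 7.98 to 10.9 CPM.

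Across group means the members did not move as a set. Over the 14 wild-type groups, mean log2 levels of ve-2 and vos-1 correlated with r 0.79 and those of ve-1 with each of the others with r 0.30 to 0.40. Over the 14 ∆ve-1 groups r was -0.23 for ve-2 and vos-1, 0.62 for ve-2 and lae-1 and -0.10 for vos-1 and lae-1. These are descriptions over groups that share days and conditions, with no test. Over the same groups, the genes most like each member were NCU00064 for ve-1 (r 0.96 over 14 wild-type groups), NCU02201 for ve-2 (r 0.93 over 28 groups), NCU00215 for vos-1 (r 0.92 over 28 groups) and NCU00401 for lae-1 (r 0.90 over 28 groups), out of 9700 genes each. The next for lae-1 were NCU10075 (r 0.86) and NCU10101 (r 0.83), and the list for ve-2 held ham-7 (r 0.92), a gene of hyphal fusion. NCU00401 was at 161 ± 25.8 CPM in ∆ve-1 in darkness after fertilization, where lae-1 was highest, and at 84.9 ± 33.5 CPM in the wild type (SD, n = 12 each).

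Around the members on the chromosome, the nearest genes were read too. NCU00645 begins 405 bases beyond lae-1 and was higher in ∆ve-1 in all 4 comparisons (log2 1.70 to 2.56), but it stayed at or under 1.25 CPM in every library. On the other side NCU00648, which lies 10868 bases away, had a log2 change of -2.36 in ∆ve-1 in darkness before fertilization and of 0.79 after it, and in light of -1.09 before and -1.45 after it. Next to the deleted gene NCU01734, 3421 bases before ve-1, was higher in ∆ve-1 in all 4 comparisons (log2 1.45 to 3.32), from 0.134 to 1.89 CPM in the wild type to 1.07 to 11.2 CPM in ∆ve-1. NCU01729, 2549 bases after ve-1, differed by 0.10 to -0.69. Beside ve-2, NCU02776 (1057 bases before it) was lower in ∆ve-1 in darkness after fertilization (log2 -0.73) and in light before it (log2 -0.97). NCU02774 (390 bases after ve-2) was higher after fertilization in darkness and in light (log2 1.22 in light), at or under 1.63 CPM in every library. NCU17127, 4294 bases after vos-1, was higher before fertilization in darkness (log2 0.99) and in light (log2 1.63).

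Of 13 genes for partners of the velvet proteins, the photoreceptors, a nuclear carrier and the COP9 signalosome, 8 passed the test between strains in darkness before fertilization (3 higher, 5 lower, median log2 -0.13), 11 in darkness after it (3 higher, 8 lower, median -0.27), 11 in light before it (2 higher, 9 lower, median -0.26) and 12 in light after it (3 higher, 9 lower, median -0.41). Of all tested genes, 63.8%, 66.3%, 70.8% and 80.9% passed in the same order, and their median lay between -0.05 and 0.04. The blue-light photoreceptor gene wc-1 was 1.55 higher on the log2 scale in ∆ve-1 in darkness after fertilization and 1.83 higher in light, and was at 426, 599 and 533 CPM on day 6 in light against 113, 106 and 107 CPM in the wild type. The phytochrome gene phy-2, for a red-light sensor whose A. nidulans counterpart binds VeA, was lower in all 4 comparisons, by 1.02 to 2.56. The kinase gene mak-2, of the pheromone response pathway, passed with this size in light before fertilization (log2 -1.14).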

How the data were processed

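Poly-A RNA of 84 libraries was sequenced as strand-specific read pairs. The authors checked reads with FastQC, trimmed them with fastp, mapped them with STAR (version 2.7 per the labels) to the OR74A assembly NC12 and deposited raw counts per gene from featureCounts. All 10590 identifiers matched the RefSeq table of NC12, from which positions and spans were taken. Counts were scaled by TMM and tested with edgeR 4.0.16 in R 4.3.3 by 1 quasi-likelihood fit of 28 group means, after the default filter on low counts with a minimum of 10, which left 9701 genes, with Benjamini-Hochberg adjustment over them. SE is the log2 change divided by the square root of F, and intervals are 95% intervals of 1.96 SE. Stages average the days with equal weight. Time courses were quadratic fits per strain and light condition, called at an adjusted p under 0.001. Library totals had a median of 16.5 M counts, and intervals cover the spread between libraries only. No 2 libraries agreed within sampling noise (lowest chi-square per degree of freedom 12.0). The script was tested on simulated data.

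Alternatives were DESeq2 1.42.0, its size factors in edgeR, no filter, each replicate number left out, a replicate block, only the groups compared, a mean for each day in the time course, and 3 added after seeing the data that left out libraries of ∆ve-1 in the dark. The text names the 4 members, genes of the list of partners past a log2 change of 1, the genes most like each member and the neighbours of each. Members and lists were chosen with earlier results of these data known. A count of a light-response motif in promoters was not run.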

Additional observations from a re-analysis of the deposited data

Results flagged for a closer look

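Among the members, 4 strain effects differed between light and dark by a test of the difference itself (edgeR interaction term, adjusted over 9701 genes). Before fertilization the difference, light minus dark, was -0.33 for ve-2 (adjusted p 0.0273) and -1.20 for lae-1 (adjusted p 0.00203), where 40.5% of all genes passed. After fertilization it was 0.78 for vos-1 (adjusted p 0.00127) and -3.07 for lae-1 (adjusted p 2.52e-14), where 48.7% of all genes passed. The value for lae-1 after fertilization kept its call under every alternative run. The call for ve-2 was lost under 9 of 10 alternatives. That for lae-1 before fertilization was lost without replicate 3 of every group (-0.51, adjusted p 0.12, edgeR). That for vos-1 was lost without replicate 2 of every group (0.65, adjusted p 0.092, edgeR).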

How the results depend on the processing

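Libraries with the same replicate number did not deviate together in most group pairs (r from -0.72 to 0.63, median 0.06, over 1134 pairs of libraries, with all 3 over 0.1 in 29 of 378 group pairs), so the number was not taken as a pairing, and with the replicate block the strain effect on ve-2 between light and dark before fertilization was -0.33; the block changed 1 call of 144, lae-1 on day 1 in light (-0.82, adjusted p 0.049, edgeR). The ve-2 difference between light and dark before fertilization was lost with DESeq2 size factors (-0.28), DESeq2 (-0.28), no filter (-0.26), only the groups compared (-0.38) and without the 3 least like libraries (-0.20). The ve-2 step in the wild type in light was lost with DESeq2 size factors and with DESeq2 (both -0.12). Calls were gained with only the groups compared for the ve-2 difference after fertilization (-0.21) and for lae-1 under light in the wild type before fertilization (-0.47, and -0.49 with DESeq2), and without the 3 least like libraries for the strain difference of the ve-2 step in the dark (0.32). The sign of vos-1 under light in ∆ve-1 after fertilization turned with only the groups compared (-0.0057). With a mean for each day the range of lae-1 over time in the wild type was 2.24 in the dark and 2.22 in light, both called, and with DESeq2 1.69 in light, called.

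Of 72 results for single days, leaving out replicate 1 lost 5 calls, gained 1 and turned 1 sign, leaving out replicate 2 lost 12, and leaving out replicate 3 lost 2 and gained 4. For stages, steps and time courses, leaving out replicates gave these ranges where a call or sign changed. For the difference of the strain effect between light and dark they were -0.35 to -0.14 for ve-2 and -1.46 to -0.51 for lae-1 before fertilization, and 0.65 to 0.89 for vos-1 after it. Under light they were -0.49 to -0.45 for lae-1 in the wild type before fertilization, -0.48 to -0.20 for ve-2 and -0.69 to -0.40 for vos-1 in ∆ve-1 before it, and -0.034 to 0.12 for vos-1 in ∆ve-1 after it. For the fertilization step they were -0.28 to -0.17 and -0.21 to -0.15 for ve-2 in the wild type in dark and light, -0.020 to 0.081 for ve-2 in ∆ve-1 in the dark, -0.44 to -0.20 for ve-1 in the wild type in light and -0.39 to -0.11 for lae-1 in ∆ve-1 in light. For strain differences of the step they were 0.093 to 0.99 for lae-1 in the dark, 0.22 to 0.42 for ve-2 in light and 0.46 to 1.08 for vos-1 in light, and from day 0 to day 1 for lae-1 -1.003 to 0.23 in the dark and -1.94 to -1.75 in light. The change of lae-1 from day 0 to day 1 in ∆ve-1 in light was -0.22 to 0.23. Fitted ranges over time, on 14 libraries in place of 21, were 1.12 to 1.42 and 1.27 to 1.47 for ve-1 in the wild type in dark and light, 2.24 to 2.64 for vos-1 in the wild type in the dark, and 2.66 to 2.88 and 1.59 to 2.44 for vos-1 in ∆ve-1 in dark and light. The cause was not tested.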
